A study of Mus musculus with 4 samples.

Results

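The integrated stress response was followed through 10 genes: Eif2ak3, Eif2ak4, Atf4, Atf5, Ddit3, Ppp1r15a, Trib3, Sesn2, Asns and Chac1. They are 10 of the 21669 protein-coding genes tested, and all of them were found in the annotation by symbol. They were chosen by their measured promoter peaks as well as by pathway: each has a peak within 1000 bp of a start in every deposited list, and Atf4 was included for the height of its peak. The presence and height of the promoter peaks are therefore given as a description, with no test. The choice did not directly use the shape of the peaks, their exact place within 1000 bp of a start, the neighbouring genes or the sequence underneath. These are described in more detail.

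The data came from chromatin immunoprecipitation and sequencing of H3K4me3 (trimethylated lysine 4 of histone H3, a mark of active and poised promoters) in heart tissue of adult female B6CASTF1/J mice, a hybrid of the B6 and CAST backgrounds, at an age of 2 months. The 4 libraries came from 2 pools, G and H, which the labels call biological replicates 1 and 2. Each pool held 2 heart biosamples and gave 2 technical replicates, and both pools carry the same donor record, so the spread between them may be technical. There was no treatment, no stressed group and no other tissue.

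The 4 deposited peak lists were a list for each pool, a replicated list of both pools, which is used unless another is named, and a pseudoreplicated list of both pools. The last 2 were made from the same reads, of both pools, and are independent neither of each other nor of the pool lists. For the 10 genes the last 2 gave the same fold enrichment. The replicated list held 24996 peaks, pool G 24826, pool H 21505 and the pseudoreplicated list 26412. Their read depth is not stated in the sources used. The tissue label was set beside marker genes by promoter peaks, which 63.0% of all genes tested had in the replicated list. All 12 of 12 cardiomyocyte markers had one, among them Myh6 at 10.30 in a domain of 20319 bp and Tnnt2 at 5.39. So had 8 of 8 endothelial, 7 of 8 fibroblast and 4 of 6 mural markers. The median fold enrichment was 9.51 for the cardiomyocyte markers and 11.36 for the endothelial ones. In each of these lists 2 genes lay above the median of 15.26 over all genes with a promoter peak. None of 8 immune markers (Ptprc among them, 1 of the others in pool G alone) and none of 6 hepatocyte markers (Alb among them) had a promoter peak, against 2 of 6 erythroid and 3 of 6 neuronal markers (1 in pool H). In whole tissue, a mark in fewer cells and a weaker mark in every cell cannot be told apart.

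As background, the integrated stress response is the pathway by which cells slow general protein synthesis and switch on repair genes. Sensor kinases such as PERK and GCN2 phosphorylate the translation factor eIF2, which lowers the translation of most messages while raising that of a few, among them the message for the transcription factor ATF4. ATF4 pairs with C/EBP and other leucine zipper proteins on a composite site, the C/EBP-ATF response element, and raises genes for amino acid supply, redox balance and, when stress is prolonged, cell death. In the heart the pathway is known for its response to mitochondrial and ischaemic stress.

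A promoter peak is a peak that overlaps the 1000 bp on either side of any protein-coding transcript start by at least 1 bp. By this rule 10 of 10 genes had a promoter peak in every list, where 63.0% of all genes tested had one in the replicated list, 63.4% in pool G, 61.3% in pool H, 63.4% in the pseudoreplicated list and 61.1% in all 4. The height of a peak is its deposited signal value, read as the fold enrichment of the immunoprecipitate over its control. It is compared between genes only within a list, and the higher values of pool G than of pool H hold for the whole list. The median fold enrichment of the 10 genes was 17.68 in the replicated list, 21.15 in pool G and 13.74 in pool H. The medians over all genes with a promoter peak were 15.26, 18.16 and 12.92.

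Behind these medians lay a wide range. In the replicated list and in each pool's own list Atf4 was the highest, followed by Eif2ak4, Eif2ak3 and Ppp1r15a, while Sesn2, Asns and Chac1 were the lowest in that order. The order of the middle genes Ddit3, Trib3 and Atf5 changed from list to list. Expressed as a percentile among the 13656 genes with a promoter peak in the replicated list, heights ran from 99.96 for Atf4 to 15.0 for Chac1. Nearest to the lower bound of the choice stood Chac1, with a fold enrichment of 6.55 in pool H. Just outside the promoter windows lay a peak beyond the end of Ppp1r15a, at 11.54 in the replicated list, and a pool H peak of 14.83 whose edge was 1811 bp upstream of the Ddit3 start.

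**Figure D1:**
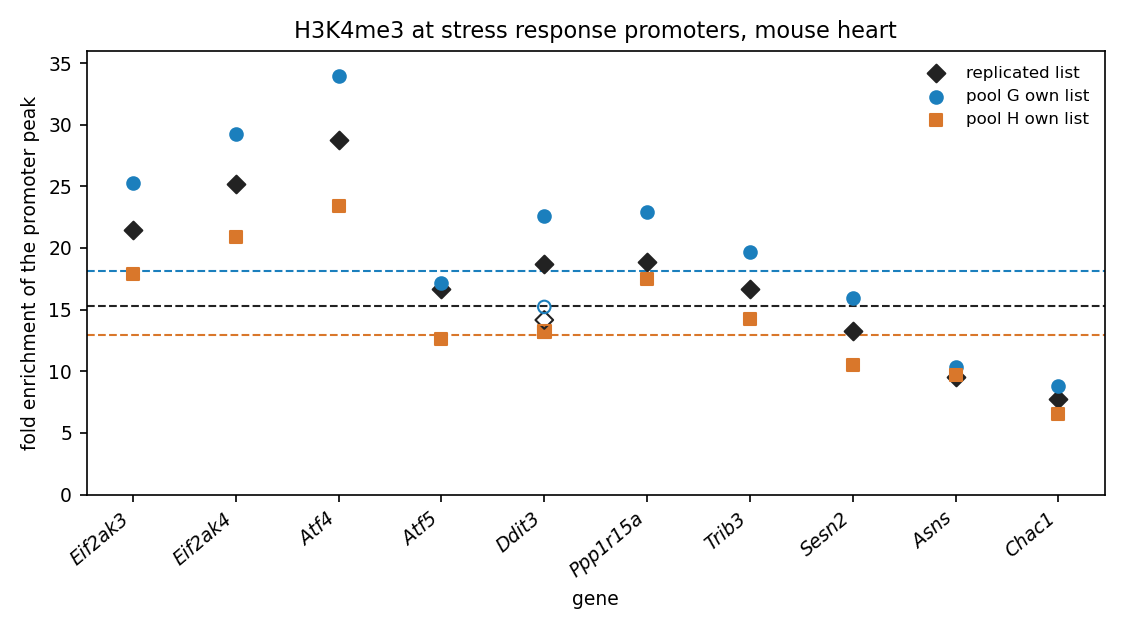
Fold enrichment of the highest promoter peak (vertical axis, linear from 0) of the 10 genes, ordered by role, in the replicated list (black diamonds), pool G (blue circles) and pool H (orange squares), with dashed lines at the median of all genes with a promoter peak in each list. Open symbols for Ddit3 mark the peak over its own start where that is not the highest. Atf4 stands highest in each list, from 23.42 to 33.98, and Chac1 lowest, from 6.55 to 8.83.

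The kinases that start the response were among the high promoters. Eif2ak4 encodes GCN2, the kinase that senses uncharged tRNA during amino acid shortage. Its promoter peak had a fold enrichment of 25.21 in the replicated list, 29.22 in pool G and 20.92 in pool H, at percentiles of 98.4, 97.6 and 97.6, so it stood near the top of each list. The peak, at chr2:118388006-118389715 in mm10, was nearly the same in both pools: 99.9% of its bases in pool G were also in the pool H peak, and the width was 1718.5 bp ± 27.6 (SD, n = 2 pools). It covered 3 of the 5 annotated starts of Eif2ak4. The other 2, at positions 118412346 and 118438842 inside the gene, had no peak within 1000 bp in any of the 4 lists. Its summit lay 90 bp upstream of the start of the longest transcript, whose span of 86388 bp was 1.0% covered by peaks.

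Eif2ak3 encodes PERK, the kinase that senses unfolded protein in the endoplasmic reticulum. Its promoter carried 2 peaks with an unmarked gap between them. The downstream peak, chr6:70844422-70845810, had a fold enrichment of 21.48 in the replicated list, 25.24 in pool G and 17.87 in pool H, and its summit lay 339 bp into the gene. The weaker upstream peak, chr6:70843297-70844203, gave 14.21, 15.26 and 12.85. The gap between them measured 218 bp in the replicated list and was shorter in pool G, at 186 bp, and longer in pool H, where it began at the same base and ended at 70844452. Its upstream edge fell on the same base, 70844203, in every list, and its downstream edge lay 93 bp before the start in the replicated list. A gap in a peak list says only that the caller listed no peak there. The bases of the gap are shown because 5 CCAAT letter matches lie in it, 4 of them among the 6 in the RefSeq promoter window of Eif2ak3. They come from the RefSeq genome GRCm38.p6 (mm10), chr6:70844204-70844421, + strand, with capitals for CCAAT on either strand.
Eif2ak3 gap: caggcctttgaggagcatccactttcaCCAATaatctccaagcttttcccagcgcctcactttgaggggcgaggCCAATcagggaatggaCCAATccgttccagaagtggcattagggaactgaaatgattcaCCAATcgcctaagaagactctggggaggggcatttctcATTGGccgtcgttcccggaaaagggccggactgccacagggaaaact
CCAAT is the letter core of the binding site of the NF-Y complex, and it was searched on both strands after the gap had been seen. The RefSeq promoter windows run from 250 bases before to 50 after each RefSeq start. In them 6 or more CCAAT matches occurred in 0.0941% of 21262 windows of protein-coding genes (20 windows), and at least 1 match in 38.2%. The cutoff of 6 is the count of Eif2ak3 itself, so the share above it is a description. Of the 10 genes 6 had at least 1: Eif2ak3, Atf4, Atf5, Ddit3, Chac1 and Sesn2.

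**Figure D2:**
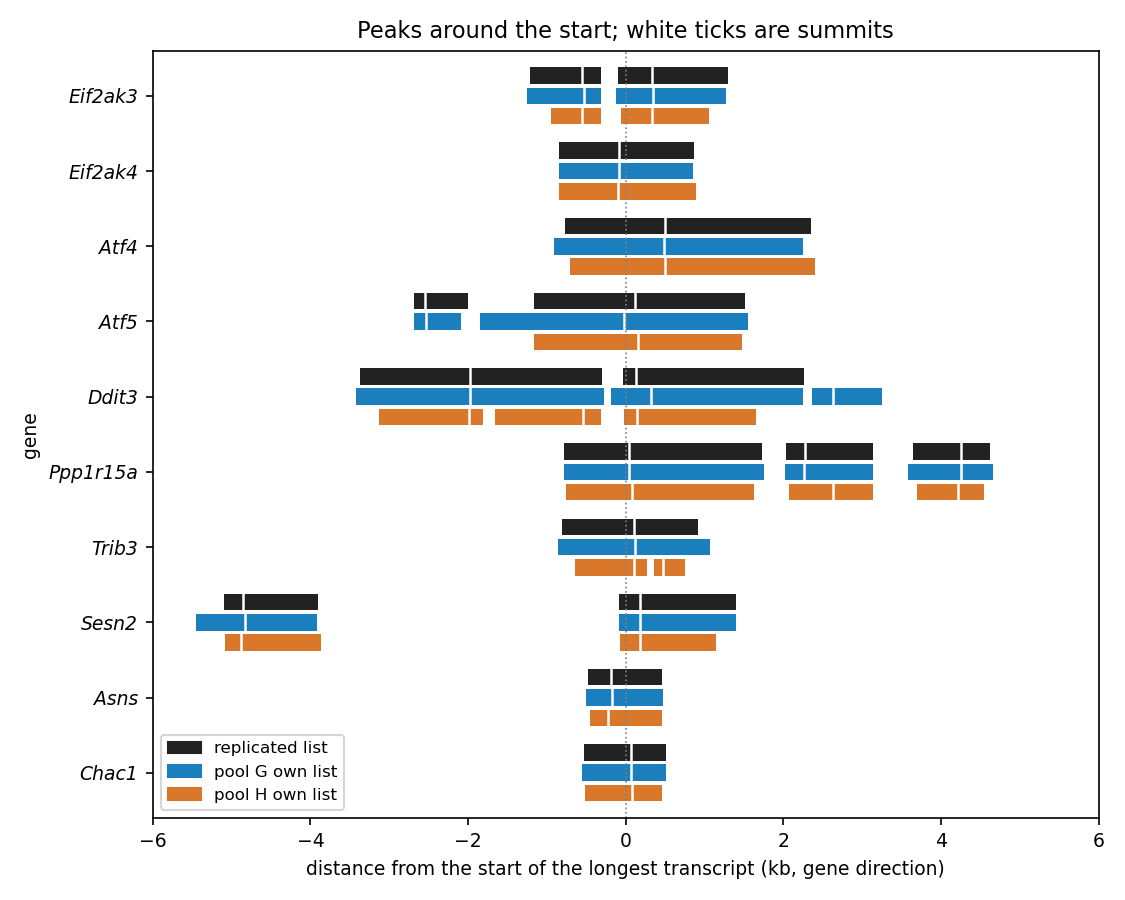
Peaks of each gene drawn to scale as bars against the distance from the start of its longest transcript (horizontal axis, kb, genes turned to read left to right), for the replicated list (black), pool G (blue) and pool H (orange), with summits as white ticks and the start as a dotted line. Eif2ak3 and Ddit3 show a gap just upstream of the start in each list, and Sesn2 shows a separate peak whose summit lies 4851 bp upstream in the replicated list.

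Among the transcription factors, Atf4 encodes the central factor of the pathway, whose message is translated more when eIF2 is phosphorylated. Its promoter peak had a fold enrichment of 28.77 in the replicated list, 33.98 in pool G and 23.42 in pool H. That placed it at rank 6 of 13656 genes in the replicated list, rank 7 of 13736 in pool G and rank 41 of 13276 in pool H. The deposited −log10 q values of the peak were 191.0, 232.3 and 135.3. It was also wide for such a high peak, at 3124 bp in the replicated list, with 3166 bp for pool G and 3110 bp for pool H (3138.0 bp ± 39.6, SD, n = 2 pools). The genes next above it in fold enrichment were Sin3b (29.18, 1563 bp wide), Trim39 (29.95, 1899 bp) and Avl9 (29.95, 1941 bp). Those next below were Rnf34 (28.60, 1755 bp), Clptm1 (28.58, 2491 bp) and N4bp2l2 (28.50, 1359 bp). All 6 neighbours were narrower than Atf4, but among the 100 genes with the highest fold enrichment 18 were wider, and the median width of those 100 was 2299 bp.

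The Atf4 peak ran over the whole gene. The longest transcript spans chr15:80255184-80257541, 2358 bp with 3 exons, and 99.8% of it lay under the peak in the replicated list, 95.5% in pool G and the whole of it in pool H. The median over all genes with a promoter peak was 5.02%, and Atf4 stood at the percentile of 98.9. Within the peak the summit was displaced into the gene, at 493 bp downstream of the start in the replicated list and pool H and at 491 bp in pool G. This position fell in an exon and stood at the percentile of 91.4 of all summits measured from a covered start. Of the peak's bases 75.3% lay downstream of the start, beside a median of 66.5% over all covered starts. The promoter is shown because it lies under this peak and has no match to the response element that the ATF4 protein binds. Its 250 bases before the RefSeq start are from RefSeq, GRCm38.p6, chr15:80254934-80255183, + strand, and capitals mark its 2 CCAAT matches.
Atf4 promoter: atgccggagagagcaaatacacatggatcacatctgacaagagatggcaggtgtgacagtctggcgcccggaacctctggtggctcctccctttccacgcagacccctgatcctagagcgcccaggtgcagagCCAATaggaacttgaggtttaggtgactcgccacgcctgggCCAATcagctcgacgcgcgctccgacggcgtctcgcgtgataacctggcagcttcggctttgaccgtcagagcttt

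Atf5 encodes a factor related to ATF4 that is also controlled by translation. Its promoter peak had a fold enrichment of 16.68 in the replicated list, 17.18 in pool G and 12.58 in pool H. These values lay above the all-gene median in the replicated list and below it in each pool's own list, at percentiles of 59.3, 45.0 and 47.4. The peak, chr7:44815143-44817825, also lay within 1000 bp of starts of Nup62, which encodes a nuclear pore protein, and of Il4i1, which encodes an amino acid oxidase, so its signal cannot be assigned to Atf5 alone. A small peak of 2.98, chr7:44818660-44819344, lay further upstream near another Nup62 start. Pool G had it at 4.17 and pool H lacked it. Joining peaks up to 1000 bp apart into a domain gave 4202 bp in the replicated list and 4235 bp in pool G, against 2631 bp in pool H. The mean of the pools was 3433.0 bp ± 1134.2 (SD, n = 2 pools).

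Ddit3 encodes CHOP, the factor that links prolonged stress to cell death. Its height depended on which peak was read. The highest peak overlapping its promoter window in the replicated list, chr10:127287401-127290474, had a fold enrichment of 18.69, but its summit lay 1979 bp upstream of the Ddit3 start, by the starts of Mbd6, a methyl-CpG-binding-domain gene on the opposite strand. The peak over the Ddit3 start itself, chr10:127290737-127293032, gave 14.16 in the replicated list, 15.22 in pool G and 13.21 in pool H. Read this way Ddit3 stood at percentiles of 42.8, 35.3 and 52.6, below the middle in the replicated list and pool G and just above it in pool H. These percentiles set the peak over the Ddit3 start against the highest promoter peak of every gene, which is an unlike measure. Pool H split the upstream signal into a peak of 14.83 at the Mbd6 starts, outside the Ddit3 window, and a peak of 7.21 inside it. Gm4189, a non-coding transcript, also starts near the Ddit3 start, as Gm12981 and Gm14164 do near those of Sesn2 and Trib3, and peaks carry no strand.

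Like Eif2ak3, Ddit3 had an unmarked gap just before its start. It measured 262 bp in the replicated list, 92 bp for pool G and 280 bp for pool H, and the peak downstream of it reached 37, 187 and 28 bp upstream of the start. A gap of this kind, with a peak that covers the start and reaches at most 250 bp upstream and another peak at most 500 bp beyond, was found at 2 of the 10 genes, beside 8.36% of the 11704 covered starts. The definition was set after both gaps had been seen, so these counts are a description. The Ddit3 gap is shown because a match to the response element, in capitals, lies in it. The bases are from the RefSeq genome GRCm38.p6, chr10:127290475-127290736, + strand.
Ddit3 gap: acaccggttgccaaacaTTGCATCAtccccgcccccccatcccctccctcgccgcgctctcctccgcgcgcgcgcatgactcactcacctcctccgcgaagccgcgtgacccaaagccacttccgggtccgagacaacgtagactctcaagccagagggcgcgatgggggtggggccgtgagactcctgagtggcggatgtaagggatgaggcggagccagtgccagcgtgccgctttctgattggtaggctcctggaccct

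The next genes act back on the pathway. Ppp1r15a encodes GADD34, the stress-induced subunit that brings a phosphatase to eIF2 and so ends the block on translation. Its main peak, chr7:45524415-45526923, had a fold enrichment of 18.85 in the replicated list, 22.92 in pool G and 17.51 in pool H. The percentiles were 73.8, 77.6 and 84.8, above the middle of each list. The peak also lay within 1000 bp of a start of Plekha4, which encodes a pleckstrin homology domain protein. A weaker peak of 7.31, 9.66 and 4.34 covered a start of Ppp1r15a at position 45523769, inside the gene. Peaks covered 88.1% of the 3225 bp of the longest transcript in the replicated list, 89.0% in pool G and 83.5% in pool H, at the percentile of 98.3, so Ppp1r15a and Atf4 were both small genes that lay largely under peaks.

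A further peak beyond the end of Ppp1r15a, chr7:45521522-45522503, overlapped the gene Tulp2 and had no annotated start within 1000 bp. Its fold enrichment was 11.54 in the replicated list, 14.44 in pool G and 8.96 in pool H. Among the 7374 peaks without a start within 1000 bp, 3.58% were at least this high, and their median was 3.60. The Ppp1r15a promoter was the 1 promoter of the 10 with a match to the cyclic AMP response element TGACGTCA, a palindrome that reads the same on both strands, and it is shown with these letters in capitals. The share of RefSeq promoter windows of protein-coding genes with this match was 2.23%. The 250 bases before the RefSeq start are from RefSeq, GRCm38.p6, chr7:45526269-45526518, − strand.
Ppp1r15a promoter: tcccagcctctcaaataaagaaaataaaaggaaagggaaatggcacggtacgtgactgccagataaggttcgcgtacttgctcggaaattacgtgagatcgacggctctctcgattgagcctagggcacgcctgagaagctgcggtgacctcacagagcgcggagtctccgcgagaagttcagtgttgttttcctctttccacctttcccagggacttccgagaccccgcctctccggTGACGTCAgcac

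Trib3 encodes a pseudokinase that is induced by ATF4 and CHOP and restrains them in turn. Its promoter peak, chr2:152343117-152344834, had a fold enrichment of 16.65 in the replicated list, 19.69 in pool G and 14.27 in pool H. The percentiles of 59.1, 59.0 and 61.0 were nearly the same in the 3 lists. In pool H the peak was split by a gap of 92 bp downstream of the start, between parts of 14.27 and 6.45. The pool H peaks held 67.8% of the bases of the pool G peak.

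The 3 effector genes were the lowest of the 10. Sesn2 encodes sestrin 2, a leucine-binding regulator of mTORC1 and redox balance. Its promoter peak, chr4:132509101-132510580, had a fold enrichment of 13.29 in the replicated list, 15.94 in pool G and 10.49 in pool H, all below the all-gene medians. It lay almost wholly inside the gene, with 94.7% of its bases downstream of the start and an upstream reach of 79 bp in the replicated list, 84 bp for pool G and 77 bp for pool H.

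A separate peak upstream of Sesn2, chr4:132514402-132515601, was higher than the promoter peak in every list. Its fold enrichment was 15.31 in the replicated list, 19.61 in pool G and 13.69 in pool H. It overlapped no annotated gene and had no GENCODE or RefSeq start within 1000 bp. Of the 7374 peaks in the replicated list without a start within 1000 bp 1.34% were as high, and of the 2739 that also overlapped no gene 2.59% were. Its 1200 bp had a GC content of 47.2%, a CpG ratio of observed to expected of 0.573, and no match to the response element or to TGACGTCA. Whether it marks an unannotated start was not tested. The 200 bases around its summit are shown because no gene model describes them, from the RefSeq genome GRCm38.p6, chr4:132515252-132515451, + strand, with CG in capitals.
Sesn2 upstream peak: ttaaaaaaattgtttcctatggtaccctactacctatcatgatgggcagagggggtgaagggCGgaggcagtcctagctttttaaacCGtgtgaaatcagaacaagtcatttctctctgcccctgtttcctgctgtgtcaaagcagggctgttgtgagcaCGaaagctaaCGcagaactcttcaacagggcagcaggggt

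Asns encodes asparagine synthetase, a classic gene of the amino acid response. Its promoter peak, chr6:7692406-7693355, had a fold enrichment of 9.52 in the replicated list, 10.34 in pool G and 9.73 in pool H, at percentiles of 20.9, 18 and 27.6. It was also the narrowest of the 10, at 950, 978 and 913 bp. The summit lay 182 bp upstream of the start of the longest transcript, among 5 annotated starts, of which the one at position 7692222 was not covered in any list.

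Chac1 encodes a glutathione-degrading enzyme that is induced through ATF4. Its promoter peak, chr2:119350695-119351741, had a fold enrichment of 7.74 in the replicated list, 8.83 in pool G and 6.55 in pool H, at percentiles of 15.0, 13.9 and 12.6. The −log10 q values of 32.6, 40.0 and 23.7 were the lowest of the 10 in each list. Low as it was, the peak was placed alike in both pools, with 91.0% of its pool G bases shared and summits 68 and 74 bp downstream of the start.

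Relative to the start, the peaks of the 10 genes were compared by what they covered, where the summit lay and how far they reached upstream. Since the genes were chosen for a peak near a start in all 4 lists, the count of covered starts is a description. The start of the longest transcript lay in a peak for 10 of 10 genes in each list, beside 85.7% of all genes with a promoter peak in the replicated list. The summit lay downstream of this start in 8 of 10 in the replicated list, beside 81.5% of all covered starts. The exceptions were Asns and Eif2ak4. Their summits lay downstream of other annotated starts of the same gene, at positions 7693110 and 7693254 for Asns and 118388618 for Eif2ak4. In pool G the summit was downstream in 7 of 10, since the Atf5 summit lay at −20 bp there. Besides Atf4 at 493 bp, the displacement ran from 48 bp for Ppp1r15a to 339 bp for Eif2ak3, and the median over all covered starts was 179 bp. The peak reached at most 100 bp upstream at Ddit3 (37 bp), Sesn2 (79 bp) and Eif2ak3 (93 bp), 3 of 10 in the replicated list, beside 12.2% of all covered starts and a median reach of 540 bp. In pool G only Sesn2 did, with 84 bp, as the reach there was 187 bp at Ddit3 and 125 bp at Eif2ak3. Among the 10 genes the reach ran up to 1167 bp, at Atf5, and the share of the peak downstream of the start from 48.9% at Chac1 to 98.4% at Ddit3.

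Widths separated the genes in another order than heights. The domains measured 5632 bp at Ddit3, 5402 bp at Ppp1r15a and 4202 bp at Atf5 in the replicated list, at percentiles of 97.5, 97.2 and 94.1. Next came Atf4 with 3124 bp (86.4) and Eif2ak3 with 2514 bp (76.0). Trib3 had 1718 bp, Eif2ak4 1710 bp and Sesn2 1480 bp, all below the all-gene median of 1799 bp. The narrowest were Chac1 with 1047 bp and Asns with 950 bp, so the lowest promoters were also the narrowest. The median width of the 10 genes was 2116 bp in the replicated list, with 2222 bp for pool G and 1870 bp for pool H, beside 1799, 1892 and 1680 bp over all genes with a promoter peak.

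In the replicated list the 3 widest domains were those that also touched the promoter window of another protein-coding gene: Mbd6 with Ddit3, Plekha4 with Ppp1r15a, and Nup62 and Il4i1 with Atf5. For Atf5 this rested on the joined peak of 2.98: in pool H, without it, Atf5 had 2631 bp and Atf4 3110 bp, and at a −log10 q of at least 5 Atf5 had 2683 bp and Atf4 3124 bp. Domains were shared at 3 of 10 genes, beside 19.8% of all genes with a promoter peak. Over all genes the median width was 2120 bp for the 2705 genes in a shared domain and 1703 bp for the 10951 alone in theirs. These 3 and Eif2ak3 also had domains of 2 or more peaks, 4 of 10 beside 24.4%. When no gaps were joined, the widest promoter peak was 3074 bp at Ddit3, 2683 bp at Atf5, 2509 bp at Ppp1r15a and 1389 bp at Eif2ak3, and Atf4 with 3124 bp became the widest of the 10.

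**Figure D3:**
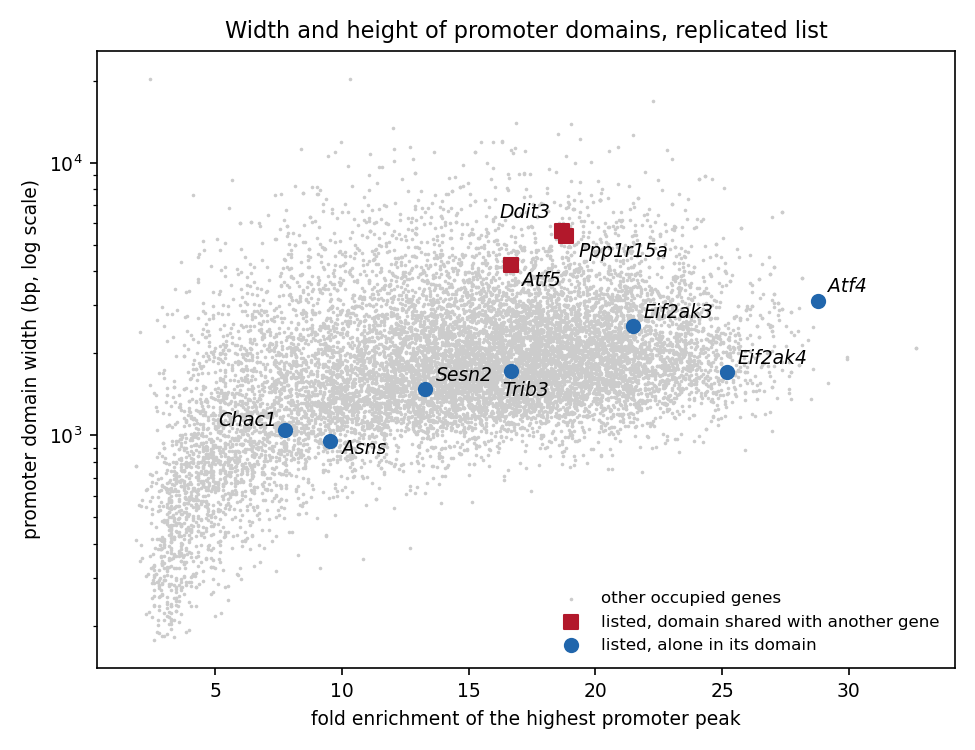
Width of the promoter domain (vertical axis, bp, log scale) against the fold enrichment of the highest promoter peak (horizontal axis, linear) for the 13656 genes with a promoter peak in the replicated list (grey), with the 10 listed genes as red squares where the domain also touches the promoter window of another protein-coding gene and as blue circles otherwise. Atf4 (28.77, 3124 bp) lies at the right edge, Ddit3, Ppp1r15a and Atf5 near the top, and Chac1 and Asns at the lower left.

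The overlap of the pools differed from gene to gene. Pool H covered 54.2% of the promoter peak bases that pool G had at Ddit3, 67.8% at Trib3, 75.0% at Eif2ak3, 77.4% at Atf5 and 82.6% at Sesn2. At Asns, Chac1, Atf4, Ppp1r15a and Eif2ak4 the share was 91.0% or more. In the other direction the pool H bases lay wholly in pool G peaks at 8 genes, and to 95.0% at Atf4 and 97.6% at Eif2ak4. Pool H thus gave narrower peaks within those of pool G at most of these genes, as it did over all genes, where its median domain was 1680 bp against 1892 bp.

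The 10 promoters were mixed in base composition. A promoter was called high-CpG if the CpG ratio of observed to expected was at least 0.6 and the GC share at least 0.5 within 1000 bp on either side of any of its starts. The ratios given are those at the start of the longest transcript. Eif2ak3 (0.827), Atf5 (0.775), Atf4 (0.747) and Asns (0.71) were high-CpG, 4 of 10, Asns by another of its starts, since its GC content at the longest transcript's start was 49.1%. This count stands beside 33.7% of all genes and 51.6% of those with a promoter peak. The other genes had ratios from 0.467 at Chac1 to 0.597 at Sesn2, the last just under the threshold. Over all genes with a promoter peak the median fold enrichment was 16.81 in the high-CpG and 13.36 in the other class. The 10 genes did not follow this order one by one: Asns, with a high ratio, was low at 9.52, and Eif2ak4, with a ratio of 0.567, was among the highest at 25.21.

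The C/EBP-ATF response element was searched as the letters TGATGNAA on both strands. In the RefSeq promoter windows of 300 bases it matched at 3 of 10 genes, Asns, Chac1 and Trib3, beside 3.6% of the windows of protein-coding genes. Their promoter peaks had fold enrichments of 9.52, 7.74 and 16.65. With the stricter letters TGATGCAA, all of which are also TGATGNAA matches, Chac1 alone remained, beside 0.865%. The endoplasmic reticulum stress element (ERSE), searched in its usual letters, matched at none of the 10, beside 0.141%. In the wider window of 1000 bp on either side of the start, TGATGNAA matched at 5 genes, adding Ddit3 and Sesn2, beside 22.2% of all genes, and TGATGCAA at 3, Ddit3, Chac1 and Sesn2, beside 4.61%. A match is a run of letters, not a bound site, and the genes had been chosen as members of a pathway that uses this element.

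The matches are shown with 10 bases on either side, as read on the strand of the gene from GRCm38.p6 (RefSeq), to let their place relative to the peaks be compared. Capitals mark the match, which appears as its reverse complement where the element lies on the opposite strand. Each distance is that of the match's first base from the start of the longest transcript. The promoter windows were set by the RefSeq start, which lies elsewhere at Asns, Chac1 and Trib3. From the RefSeq start the first base lay at position −23 for Asns, −193 for Chac1 and 15 (downstream) for Trib3.
Trib3, 14 bp upstream, chr2:152344029-152344056: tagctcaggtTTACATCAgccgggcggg
Chac1, 180 bp upstream, chr2:119351039-119351066: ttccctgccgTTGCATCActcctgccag
Asns, 361 bp upstream, chr6:7693215-7693242: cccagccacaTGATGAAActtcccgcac
Ddit3, 282 bp upstream, chr10:127290482-127290509: ttgccaaacaTTGCATCAtccccgcccc
Ddit3, 871 bp downstream, chr10:127291635-127291662: gctcctctgcTGATGAAAgccaggtccc
Sesn2, 259 bp upstream, chr4:132510743-132510770: tgaagtcccgTTTCATCAcgcagcccta
Sesn2, 561 bp downstream, chr4:132509923-132509950: agggctagggTTGCATCAactgcagcct
The matches of Trib3, Chac1 and Asns and the downstream matches of Ddit3 and Sesn2 lay in a peak in all 4 lists. The upstream match of Sesn2 lay outside the peaks in all 4, and that of Ddit3 outside the peaks in 3 and on a peak edge in pool G. The sequences are those of the reference, which is not the hybrid strain that was sampled.

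The pathway around the 10 genes was described with 9 lists of 123 further genes. Of these, 119 had a promoter peak in every list, beside 61.1% of all genes tested. The counts per list that follow are for the replicated list, where the share over all genes was 63.0%. Their median fold enrichment was 17.31 in the replicated list, beside 15.26 over all genes with a promoter peak, and 80 lay above that all-gene median. The 4 without a promoter peak were Nrl, a retinal factor, the amino acid transporter gene Slc7a3, and the secreted stress hormone genes Gdf15 and Fgf21.

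The list around the translation switch was marked throughout. It holds genes of eIF2, eIF2B, the other kinases and phosphatase parts, and also regulators and further initiation factors. All 20 had a promoter peak, with a median of 19.40 and 15 above the all-gene median. Eif2ak1, the haem-regulated kinase, and Ppp1ca, a phosphatase catalytic subunit, were the highest at 23.40 each. Ppp1r15b, the constitutive counterpart of Ppp1r15a, had the widest domain at 5591 bp. Of the leucine zipper factors around ATF4, 15 of 16 had a peak, with a median of 17.09. Creb3l2 was the highest at 27.06, followed by Nfe2l2, the oxidative stress factor, at 23.67, and Jun had the widest domain at 5444 bp.

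The lists of amino acid supply were not alike. The enzymes of amino acid and one-carbon synthesis, the list nearest in role to Asns, all had a peak (14 of 14), but their median of 12.48 was the lowest of the 9, and 5 lay above the all-gene median. Psph, of serine synthesis, was high at 23.79 and Shmt2, of mitochondrial one-carbon metabolism, at 21.28, while Got1 had the widest domain at 5892 bp with a fold enrichment of 10.63. Of the transporters 9 of 10 had a peak, with a median of 16.03, Slc7a5 the highest at 19.14 and Slc38a2 at 18.85 also the widest at 6848 bp. The tRNA synthetases all had a peak (14 of 14), with a median of 19.38, led by Nars at 23.97 and Sars at 21.43, and Wars had the widest domain at 2443 bp.

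Among other stress-induced targets 17 of 19 had a peak, with a median of 16.87. Ddit4, an inhibitor of mTORC1, was the highest at 25.17, Sqstm1, an autophagy receptor gene, followed at 23.29, and Vegfa had the widest domain at 6308 bp. All 15 genes of the unfolded protein response outside eIF2 had a peak, with a median of 18.78, led by Calr at 26.86 and Ern1, the gene of the sensor IRE1, at 24.34, and with Hspa5, the gene of the chaperone BiP, the widest at 6164 bp. The relay from mitochondria passes stress through OMA1 and DELE1 to an eIF2 kinase. The list drawn around this relay holds 11 mitochondrial stress genes, not all of which are parts of it. All 11 had a peak, with a median of 17.64, and Dele1 at 19.42 and Yme1l1 at 18.79 were the highest. Hspd1 and Hspe1 shared the widest domain there, 3079 bp. All 5 relatives of Trib3, Sesn2 and Chac1 had a peak, with a median of 17.70. Sesn1 (21.54), Trib1 (21.04) and Trib2 (6298 bp wide) stood above Sesn2 and Trib3 in the same measures. Sesn3 (12.99) stood below Sesn2 (13.29), and Chac2 (10.05) above Chac1 (7.74) but below Sesn2 and Trib3.

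**Figure D4:**
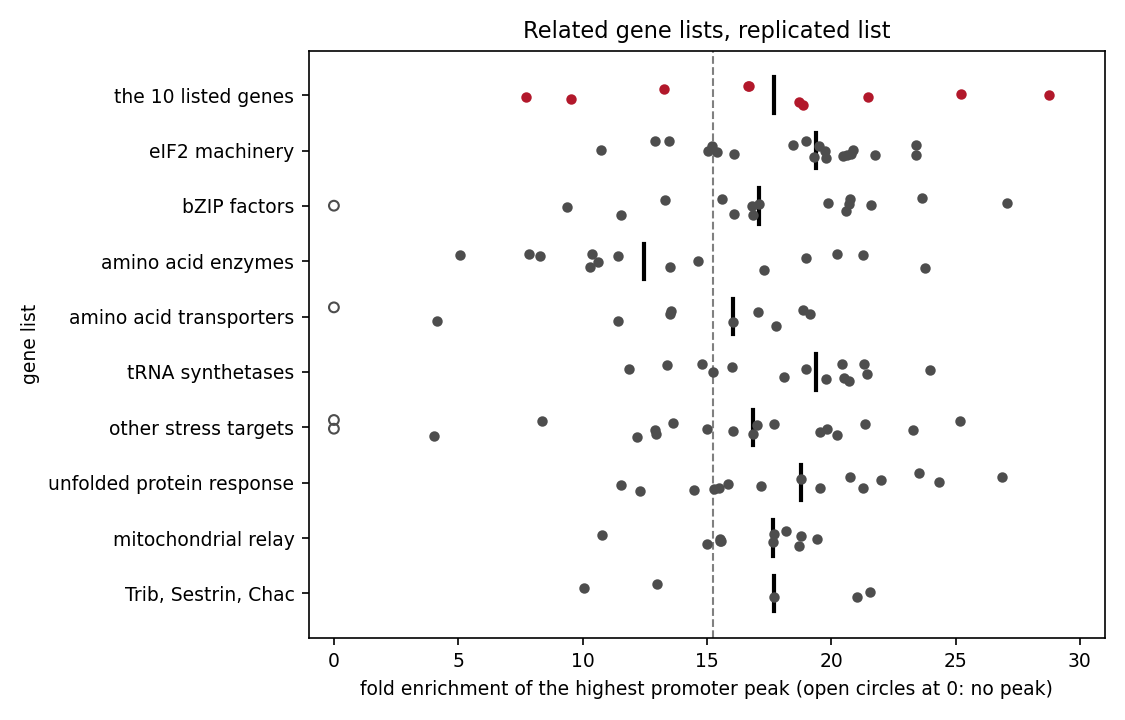
Fold enrichment of the highest promoter peak in the replicated list (horizontal axis, linear) for the 10 listed genes (red) and the 9 related lists (dark grey), 1 point per gene, with black bars at list medians, open circles at 0 for genes without a promoter peak and a dashed line at the all-gene median of 15.26. The enzymes of amino acid synthesis have the lowest median, 12.48, and the eIF2 machinery the highest, 19.40.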

How the data were processed

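H3K4me3 was measured in 4 libraries from 2 pools of heart tissue, and 4 peak lists on mm10 were analysed. The pool of each list was taken from the library notes. Each deposited list gives a signal value per peak, read here as the authors' ratio (fold enrichment) of immunoprecipitate over control, a deposited −log10 q value, and the deposited offset of the summit. The peak caller, its version, its thresholds, the aligner and the read depth are not given in the sources used here, so no interval was computed, and a signal track was not used. Replicated and pseudoreplicated are the authors' names for the lists of both pools, per the labels. The list of each pool is also named pseudoreplicated. The lists also hold peaks with q over 0.05 (667 of 24996 in the replicated list).

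Peaks were joined to the protein-coding transcripts of GENCODE M21 outside chromosome Y and the mitochondrion with Python 3.11.15, pandas 2.3.3 and numpy 2.4.6. A gene's height is that of its highest peak within 1000 bp of any start, and its domain is the widest run of peaks at most 1000 bp apart that touches this window. Ddit3 has 2 records in the annotation, which were joined (11 records for 10 genes). Percentiles give the share of genes with a promoter peak and a lower value in the same list. Promoter windows are those of RefSeq for GRCm38.p6, 12 windows for the 10 genes, and other sequence was read from the same assembly. The join was tested on simulated peaks, where 200 of 200 planted genes were recovered.

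No test was run: the genes were chosen by measured peaks, and each list holds 1 value per gene. The genes and the lists of related genes were chosen with earlier results of these data known. The text names all 10 genes and, of each related list, the 2 highest, the widest and up to 4 without a peak. Of the relatives of Trib3, Sesn2 and Chac1 it names all 5. It also names the 3 genes on either side of Atf4 in height, the genes whose starts share a peak or domain, and 4 tissue markers. The CCAAT search, the definition of the gap and the comparison with peaks away from starts were added after the data had been seen. The alternatives tried were each of the remaining lists, a floor of 5 on −log10 q, windows of 500 and 2000 bp, the longest transcript alone, the peak with the nearest summit, other joining gaps, and other motif letters and windows.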

Additional observations from a re-analysis of the deposited data

How the results depend on the processing

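All 10 genes kept a promoter peak under all 7 alternatives, and of the 123 related genes 119 or 120 did. For the 10 genes the choice fixed this outcome in the other lists and in the window of 2000 bp. Each had been chosen for a peak within 1000 bp of a start in every list. Only the floor of 5 on −log10 q, the window of 500 bp and the longest transcript alone could have lost a gene. Heights remain a description, since the choice used measured peaks and Atf4 was included for its height. The median fold enrichment of the 10 genes ran from 13.74 (pool H) to 21.15 (pool G) and was 16.66 with the peak of the nearest summit, each above the all-gene median of its setting. Their median width was 1714.0 bp when no gaps were joined, against 2116.0 bp, and the all-gene median was then 1627.0 bp. Atf4 stood at the percentile of 99.69 in pool H, against 99.96. The number of genes with a response element match was 1 with the letters TGATGCAA and 5 in the window of 1000 bp on either side, against 3.

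Each pool's own list stands for leaving out the other pool. Between the replicated list and these lists the width of the 10 genes changed most, in proportion, at Atf5, from 4202 to 2631 bp in pool H. Technical replicates could not be left out, since the lists of a pool hold both together. No paired analysis was possible because the lists hold no value per replicate and the replicate numbers do not tie a library of pool G to one of pool H. Without counts or depth, a gap or a missing peak cannot be told apart from a signal under the caller's threshold.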

Other observations

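Some peaks near the 10 genes were listed in part of the lists alone. Pool G held a peak in an intron of Eif2ak3, chr6:70887128-70888160, with a fold enrichment of 5.11 and a summit 43075 bp from the start, and the pseudoreplicated list held it at 3.26. The replicated list and pool H had none there. A peak in an intron of Ddit3, chr10:127293142-127294028, with a fold enrichment of 3.31, was listed in pool G alone. Beyond the upstream peak of Sesn2, the pseudoreplicated list held a further peak of 2.73, 232 bp wide, whose bases fell within the wider upstream peak of pool G (1530 bp).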
